A study of Mus musculus with 4 samples.

Results

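A set of 9 conventional dendritic cell (cDC) genes was followed across the immune cells of B16 melanoma tumors: *Batf3*, *Zbtb46*, *Flt3*, *Clec9a*, *Cd209a*, *Mgl2*, *Sirpa*, *Irf4* and *Kmo*. They were chosen by symbol, and all 9 were found among the 32285 genes listed for the CD45 sort and among the 31053 listed for the T cell sort. B16-F10 mouse melanoma cells carrying doxycycline (dox)-controlled cytoplasmic ZsGreen (ZsG), grown from 1 clone, were injected under the skin of wild-type C57BL/6 mice, and infiltrating cells were taken on day 8 after 4 days of dox. Either all CD45-positive cells or T cells were sorted into ZsG- and ZsG+ cells, which gave 4 single-cell libraries with 1 library per condition and no replicates. The T cells were CD45+ TCRb+ by the labels and CD45+ CD3+ by the methods. Mouse age and the number of tumors pooled are not stated in the labels or methods. The ZsG+ gate of the CD45 sort took bright cells, so its ZsG- library also holds dimmer ones. The study asked which immune cells pick up tumor material, and the comparisons below ask how each cDC gene was distributed over cell classes and over the ZsG gate. Because each condition is 1 library, the ZsG gate and the library cannot be told apart, no test across samples was possible, and all ranges in parentheses are exact 95% intervals (Poisson for levels, Clopper-Pearson binomial for shares, conditional binomial for ratios) that cover counting error only. For a group with 0 UMIs or cells, limits written as "at least" or "up to" take the 0 as 3 counts over the group. Fold limits of this kind treat UMIs as independent and are too high where few cells hold the UMIs. A level is the summed UMIs (unique molecular identifiers, single captured transcripts) of a gene in the cells of a class, per 1000000 UMIs of those cells (CPM). Transcripts were counted from their 3′ ends, and levels are compared between classes within 1 gene and never between genes.

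Conventional DC take up antigen and present it to T cells, and they fall into a DC1 branch, which depends on the transcription factor Batf3 and presents antigen from dead cells to CD8 T cells, and a DC2 branch, which depends more on Irf4 and serves mainly CD4 T cells. Plasmacytoid DC (pDC) are a separate lineage known for type I interferon, and monocytes and macrophages share the tumor with all of them. Among the 9 genes, *Clec9a* (a lectin receptor for exposed actin of dead cells) and *Batf3* are DC1 genes, while *Cd209a* (a DC-SIGN homolog), *Mgl2* (a galactose-type lectin, CD301b), *Sirpa* (an inhibitory receptor for CD47, also present on macrophages) and *Irf4* are DC2 genes. *Zbtb46* (a zinc finger factor of cDC) and *Flt3* (the receptor for the growth factor Flt3 ligand) are shared cDC genes, and *Kmo* encodes kynurenine 3-monooxygenase of tryptophan breakdown.

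Cells were assigned to classes by 6 marker genes per class, none of them one of the 9 genes: for example *Xcr1*, *Wdfy4* and *Tlr3* for DC1-like cells, *Ffar2*, *Clec10a* and *Ccl17* for DC2-like cells, *Fscn1*, *Ccr7* and *Ccl22* for mature DC-like cells, and *Siglech*, *Ccr9* and *Klk1* for pDC-like cells. The scoring rule was settled after shares of the 9 genes had been seen, so the classes are not independent of these genes. In the CD45 sort the ZsG- and ZsG+ libraries held, in that order, 23 and 84 DC1-like, 20 and 153 DC2-like, 10 and 52 mature DC-like, 214 and 21 pDC-like, 2 and 1495 macrophage-like and 193 and 1017 classical monocyte-like cells. The T cell sort held many cells other than T cells: of 948 ZsG- and 1879 ZsG+ cells kept, 627 and 712 were T cell-like, whereas 120 and 603 were pDC-like and 32 ZsG+ cells were DC1-like and 22 DC2-like. The 5 DC1-like and 5 DC2-like ZsG- cells of that sort were too few for values of their own. *Mgl2* is a near-identical tandem copy of the DC2-like marker *Clec10a*, so it is not fully independent of that class and reads may be split between both genes; *Cd209a* and *Sirpa* also have close relatives, which makes their counts less certain.

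Each library held 1136 to 5437 barcodes and 10030971 to 56510578 UMIs, and kept cells had a median of 5769.5 to 9931 UMIs; at most 0.264% of a library's barcodes recurred in another library. The labels of the T cell sort libraries disagree about their order: the name of the combined table puts ZsG+ first and the library names put ZsG- first. The table's name was followed, and every ZsG comparison in that sort rests on it. Under it, T cell-like cells of that sort had a C1q UMI in 15.4% of ZsG+ and 5.58% of ZsG- cells and a UMI of the proliferation gene *Mki67* in 18.1% and 8.61%, both higher in ZsG+ cells as in the CD45 sort, where *Mki67* had 50.7% and 31.95%. Melanoma cell-like cells went the other way, with 1 in the ZsG+ and 23 in the ZsG- library, whereas the 2 found in the CD45 sort lay in its ZsG+ library. *Mki67* also went against the CD45 sort in pDC-like cells (2.49% of ZsG+, 5% of ZsG-) and classical monocyte-like cells (5.38% and 11.4%), whereas C1q did not. In DC2-like cells both did, with C1q in 22.7% of ZsG+ and 60% of the 5 ZsG- cells. In DC1-like and NK cell-like cells both went as in the CD45 sort. The share of pDC-like cells went against it, with 32.1% of ZsG+ and 12.7% of ZsG- cells in the T cell sort. In the CD45 sort it was 0.509% and 4.56%. The shares of DC1-, DC2-, mature DC-, macrophage-, classical monocyte-, T cell- and NK cell-like cells went the same way in both sorts. None of these values was used to assign the libraries. Macrophage transcripts moved with the ZsG gate in the CD45 sort. At least 1 UMI of *C1qa*, *C1qb* or *C1qc*, complement genes of macrophages, was found in 76.2% of ZsG+ DC1-like, 79.7% of ZsG+ DC2-like and 73.9% of ZsG+ NK cell-like cells, but in none of the ZsG- DC1-like or DC2-like cells and in 1.87% of ZsG- NK cell-like cells. The summed level of all 6 macrophage markers was 684 CPM in ZsG+ and 0 in ZsG- DC1-like cells (all 6 at 0), and 642 against 0 in DC2-like cells (all 6 at 0). In the T cell sort the ZsG+ values were lower, at 16.3 in DC1-like and 98.4 in DC2-like cells.

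The 9 genes lie on 7 chromosomes (GENCODE vM21, GRCm38). All are protein-coding. *Clec9a* (ENSMUSG00000046080) occupies chr6:129408862-129424763 on the plus strand, *Batf3* chr1:191097847-191108945 on the plus strand, *Cd209a* chr8:3743397-3748984 on the minus strand, *Mgl2* chr11:70130329-70137550 on the plus strand, *Irf4* chr13:30749226-30766976 on the plus strand, *Sirpa* chr2:129592835-129632228 on the plus strand, *Zbtb46* chr2:181387762-181459426 on the minus strand, *Flt3* chr5:147330741-147400489 on the minus strand and *Kmo* chr1:175620381-175662116 on the plus strand. Promoter windows of 300 bases (250 before to 50 after the start, RefSeq, GRCm38.p6) were matched for 8 of the 9 genes, all but *Sirpa*. Among the 8 windows, the RefSeq start lies inside the GENCODE gene, away from its outer end, for *Zbtb46*, *Kmo* and, less far in, *Batf3*. The whole *Zbtb46* window lies inside the gene, whose outer end on the minus strand is at 181459426. It may thus be intron sequence, and a match in it cannot be placed in a promoter. They were searched on both strands for the AP-1 site TGANTCA, an element recognised by Batf-family dimers, for the tandem IRF element, GAAA and GAAA with 2 free bases (NN) between them, and for the ETS-IRF composite, GGAA and GAAA with the same spacing. Only 2 of the 8 windows held a match. The *Zbtb46* window held TGACTCA at bases 190 to 196, and the *Cd209a* window held the ETS-IRF composite on the opposite strand at bases 242 to 251, next to the start; bases are counted from the 5′ end of the window. Over all 32851 RefSeq windows of the same length, 7.81% held the AP-1 site, 3.44% the tandem IRF element and 2.72% the ETS-IRF composite. The composite and the tandem element can overlap, since both contain GAAA. A match is a run of letters and no evidence of binding. The windows are shown for the clearest DC1 gene, the clearest DC2 gene and the cDC-wide factor, with matched bases in capitals.
Clec9a (chr6:129408612-129408911, plus strand): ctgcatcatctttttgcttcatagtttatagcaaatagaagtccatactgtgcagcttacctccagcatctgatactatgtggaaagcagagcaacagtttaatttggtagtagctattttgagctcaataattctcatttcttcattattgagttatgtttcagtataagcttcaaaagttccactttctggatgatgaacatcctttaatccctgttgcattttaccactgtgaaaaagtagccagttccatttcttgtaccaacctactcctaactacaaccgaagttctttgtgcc
Cd209a (chr8:3748935-3749234, minus strand): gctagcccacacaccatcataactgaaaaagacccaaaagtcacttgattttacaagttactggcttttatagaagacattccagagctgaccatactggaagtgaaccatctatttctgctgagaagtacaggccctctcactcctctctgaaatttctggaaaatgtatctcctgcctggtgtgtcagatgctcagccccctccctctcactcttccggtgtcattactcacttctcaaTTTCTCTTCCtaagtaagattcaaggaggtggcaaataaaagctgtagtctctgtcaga
Zbtb46 (chr2:181424339-181424638, minus strand): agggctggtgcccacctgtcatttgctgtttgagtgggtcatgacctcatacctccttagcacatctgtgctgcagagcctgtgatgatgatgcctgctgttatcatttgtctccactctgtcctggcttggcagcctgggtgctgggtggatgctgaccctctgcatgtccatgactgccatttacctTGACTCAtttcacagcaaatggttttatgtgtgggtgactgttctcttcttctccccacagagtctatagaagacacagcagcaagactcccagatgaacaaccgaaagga
G and C made up 37% of the *Clec9a* window, 44% of the *Cd209a* window and 50.7% of the *Zbtb46* window, against 75.7% for *Batf3*, the highest of the 8.

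*Clec9a* was highest in DC1-like cells in every library that held them. Its level was 172 (129 to 225) CPM in ZsG- and 164 (143 to 187) in ZsG+ DC1-like cells of the CD45 sort, and 182 (148 to 221) in ZsG+ DC1-like cells of the T cell sort. These 3 intervals overlapped. *Clec9a* was detected in 83.2% (74.7 to 89.7%) of DC1-like cells of the CD45 sort. The second class in order was pDC-like, with 73.3 (62.03 to 86.01) CPM and a UMI in 43.4% of cells in the CD45 sort, and 77.4 (70.6 to 84.7) and 39.97% in the T cell sort. DC1-like and pDC-like intervals did not overlap. All 4 pDC-like groups fell between 58.5 and 77.7 CPM, and their intervals overlapped. DC2-like cells gave 4.67 (1 UMI), 18.7 and 37.6 CPM in the ZsG- and ZsG+ CD45 libraries and the ZsG+ T cell library. Macrophage-like cells of the CD45 sort had 10.8 (9.47 to 12.2) CPM and a UMI in 12.2% of cells (median 13139 UMIs in the ZsG+ cells), whereas 0 of 111 ZsG+ NK cell-like cells had one (median 3556 UMIs), which allows up to 2.703% of cells with a UMI at that lower depth and does not limit the share that express the gene. After thinning every cell to 3000 UMIs, the shares were 38.3% in DC1-like, 15.3% in pDC-like, 6.395% in DC2-like and 2.96% in macrophage-like cells, in the same order as the levels of these 4 classes.

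*Batf3* was not restricted to DC1-like cells. DC1-like cells had 272 (217 to 337) CPM in the ZsG- and 241 (215 to 269) in the ZsG+ library of the CD45 sort and 263 (222 to 309.7) in the T cell sort, and 88.8% of them had a UMI in the CD45 sort. Mature DC-like cells, which carry maturation genes such as *Fscn1* and *Ccr7*, came close with 223 (187 to 264) in the ZsG+ CD45 library and 227 (189 to 269) in the ZsG+ T cell library, and their intervals overlapped those of DC1-like cells. Below them lay classical monocyte-like cells, with 63.3 and 86.9 in the CD45 sort and 80.6 and 96.8 in the T cell sort, in the order ZsG- and ZsG+. Macrophage-like cells had 75.98 (ZsG+, CD45 sort), 55.8 and 49.3 (T cell sort), and DC2-like cells 84.04, 44.2 and 75.3. Monocyte-, macrophage- and DC2-like cells thus all lay well below DC1-like and mature DC-like cells, but they differed among themselves. Over both CD45 libraries DC2-like cells, at 47.99 (39.4 to 57.9), lay below macrophage-like (72.4 to 79.7) and classical monocyte-like cells (77.5 to 88.6). Over the T cell sort macrophage-like cells, at 51.03 (42.7 to 60.5), lay below classical monocyte-like cells, at 92.2 (77.0 to 109.6). Being numerous, macrophage- and classical monocyte-like cells held 39.5% and 20.03% of all *Batf3* UMIs of the CD45 sort, against 9.11% for DC1-like cells. The pDC-like cells were nearly without it. They gave 1 UMI in 235 cells of the CD45 sort and 4 UMIs in 723 cells of the T cell sort, or 0.489 (0.0124 to 2.72) and 0.655 (0.178 to 1.68) CPM. The pDC-like cells thus had *Clec9a* with almost no *Batf3*.

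**Figure D1:**
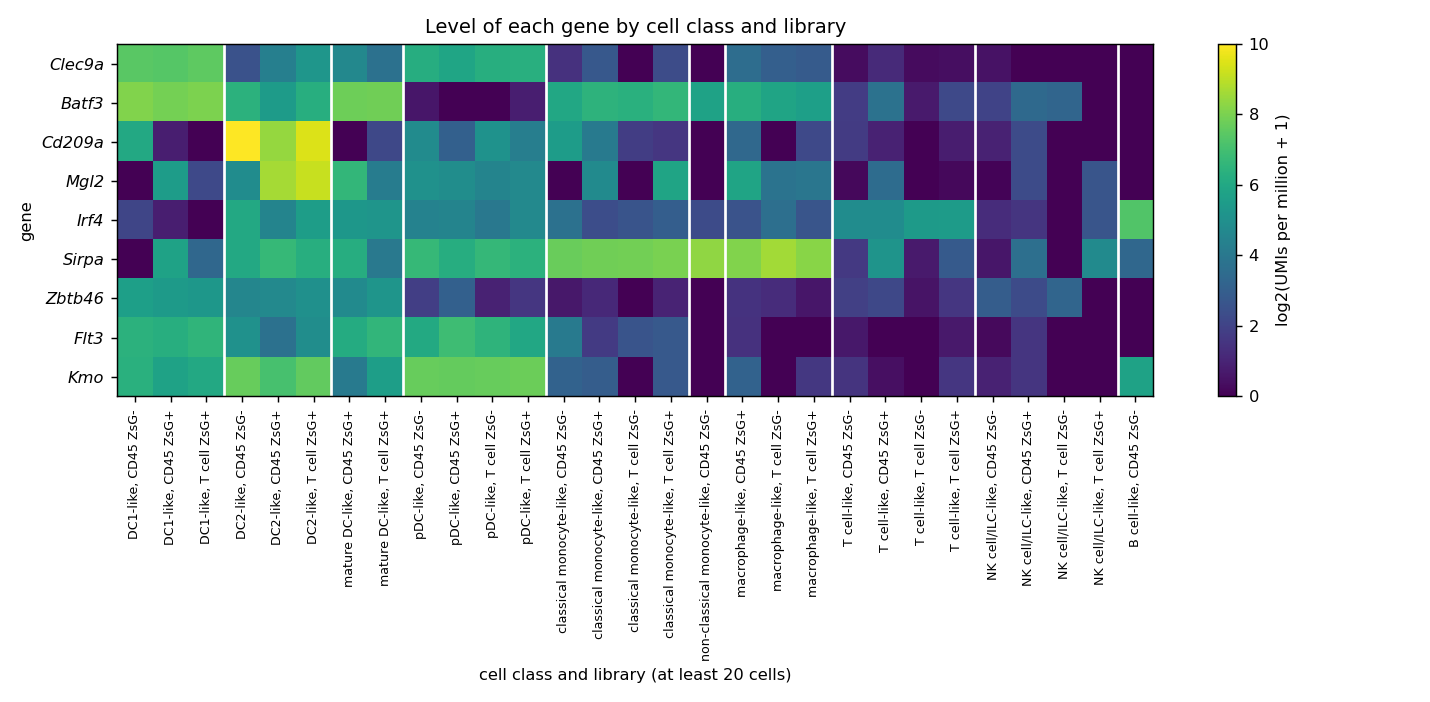
Heatmap of the level of each of the 9 genes (rows) in each cell class and library with at least 20 cells (columns), with color giving log2(level + 1), the level in CPM, from dark (low) to yellow (high). *Clec9a* is brightest in the 3 DC1-like columns with the 4 pDC-like columns next, *Cd209a* in the 3 DC2-like columns, *Kmo* in pDC-like and DC2-like columns and *Sirpa* in monocyte- and macrophage-like columns.

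*Cd209a* was concentrated in DC2-like cells among the named classes. DC2-like cells had 1195 (1053 to 1351) CPM in the ZsG- and 343 (318 to 369) in the ZsG+ library of the CD45 sort and 718 (631 to 813) in the ZsG+ library of the T cell sort, and 18 of 20, 87 of 153 and 17 of 22 cells had a UMI. The 3 intervals did not overlap, with the ZsG- cells of the CD45 sort highest, whereas the 5 ZsG- DC2-like cells of the T cell sort had 129 (68.7 to 221). In DC1-like cells of the CD45 sort 20 UMIs came from 2 ZsG- cells and 1 UMI from 1 ZsG+ cell, and in the T cell sort none were found in 37 cells, which allows up to 4.88 CPM (exact upper limit 6.002). Mature DC-like cells had 0 UMIs in the CD45 sort and 2 in the T cell sort. The pDC-like cells had 25.9 (19.4 to 33.9) and 21.1 (17.6 to 25.1) CPM in the CD45 and T cell sorts, with a UMI in 13.2% and 10.4% of cells. Macrophage-like cells had 9.41 and classical monocyte-like cells 20.7 in the CD45 sort, the latter in 4.55% of cells. Cells that fitted no class held 40.5% of all *Cd209a* UMIs of the CD45 sort, more than the 37.3% in DC2-like cells. Of these cells, 941 of 963 ZsG+ and 233 of 244 ZsG- had a margin to the next class below or just above the limit. The DC2-like marker *Ifitm1* was among the genes that set them most apart. The gene was thus not limited to cells assigned to the DC2-like class, and what the unassigned cells are was not tested.

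*Mgl2* was high in DC2-like cells of both ZsG+ libraries and low in those of the ZsG- library of the CD45 sort. Its level was 28.01 (10.3 to 60.97) CPM in ZsG- (6 UMIs in 3 of 20 cells) and 401 (374 to 429) in ZsG+ DC2-like cells (816 UMIs in 80 of 153) of the CD45 sort, and 567 (491 to 653) in ZsG+ cells of the T cell sort. The transcripts were unevenly spread: among ZsG+ DC2-like cells of the CD45 sort the top 5% of cells held 40.3% of the UMIs, and 1 cell held 70. Macrophage-like cells of the CD45 sort had 55.7 (52.7 to 58.9) CPM, with 75.1% of the UMIs in the top 5% of cells. Because macrophage-like cells were so numerous, they held 33.00% of all *Mgl2* UMIs of the CD45 sort, more than the 21.4% in DC2-like cells. In pDC-like cells *Mgl2* was at 32.2 and 24.2 CPM in the CD45 and T cell sorts. The counting intervals treat UMIs as independent, so they are too narrow for a gene this clustered.

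**Figure D2:**
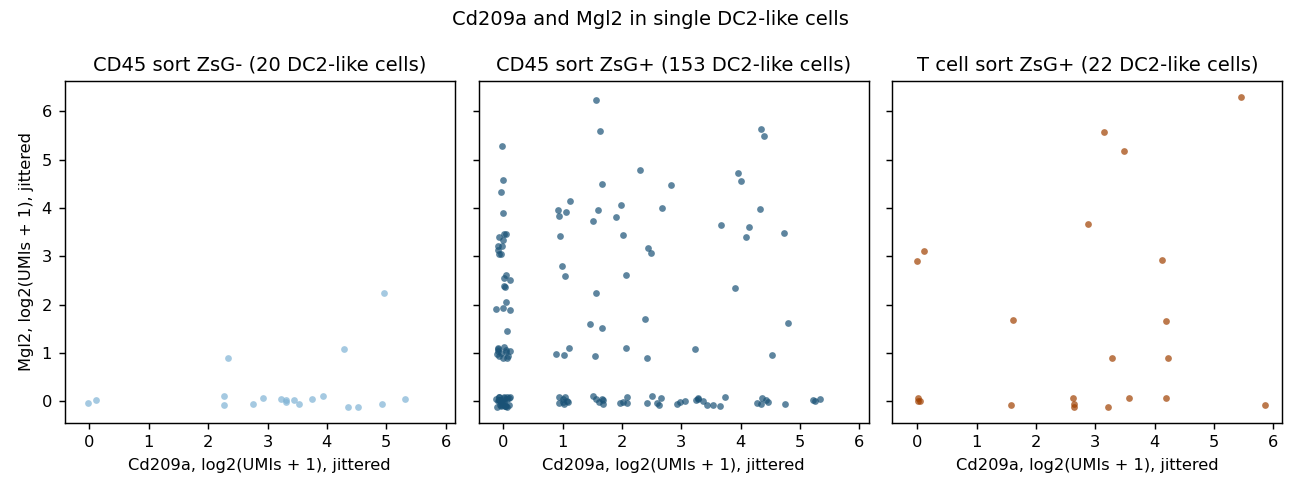
*Cd209a* (horizontal) against *Mgl2* (vertical) in single DC2-like cells of 3 libraries, each axis log2(UMIs + 1) with small random offsets so that equal points can be seen. The 20 ZsG- cells of the CD45 sort lie along the *Cd209a* axis, with *Mgl2* in 3 of them, whereas the 153 ZsG+ cells spread along both axes and 44 of them hold both genes.

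*Irf4*, the DC2 transcription factor, was nearly missing from DC1-like cells. They had 1 UMI in the ZsG- and 1 in the ZsG+ library of the CD45 sort and 0 in the T cell sort. DC2-like cells had 65.4 (35.7 to 109.7) CPM in the ZsG- and 22.1 (16.1 to 29.6) in the ZsG+ library of the CD45 sort and 46.3 (26.5 to 75.2) in the T cell sort. Mature DC-like cells lay within that range, at 37.7 and 36.6 in the ZsG+ libraries, and pDC-like cells at 20.5 and 23.2 in the CD45 and T cell sorts. *Irf4* is also induced in activated T cells and is used by B cells. T cell-like cells had 28.2 and 43.4 CPM in these sorts and held 57.6% and 61.5% of all its UMIs, and the 35 B cell-like cells had 150.2 (87.5 to 240.4). Macrophage- and classical monocyte-like cells were lower, at 4.84 and 5.48 in the CD45 sort.

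*Sirpa* was higher in monocyte- and macrophage-like cells than in any DC class. Levels were 338 (273 to 413) CPM in non-classical monocyte-like, 277 (270.1 to 284) in macrophage-like and 224 (215 to 233) in classical monocyte-like cells of the CD45 sort. DC2-like and pDC-like cells followed and did not differ beyond counting error, at 99.97 (87.3 to 114) and 102 (88.7 to 117). In DC1-like cells the value depended on the library. It was 0 UMIs in 23 ZsG- cells, 70 UMIs in 23 of 84 ZsG+ cells of the CD45 sort, and 5 UMIs in 1 of 32 ZsG+ cells of the T cell sort. A C1q UMI was found in 0%, 76.2% and 6.25% of these cells, in the same order, and the 20 ZsG+ DC1-like cells of the CD45 sort without one had 0 *Sirpa* UMIs. Mature DC-like cells had 73.8 CPM in the ZsG+ CD45 library and 15.7 in the ZsG+ T cell library, where 69.2% and 1.85% of cells had a C1q UMI. The C1q share differed by library, and the part of macrophage transcripts in the *Sirpa* values of DC was not tested.

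*Zbtb46* marked all 3 cDC classes at a low level. DC1-like cells had 48.6 (27.2 to 80.2) and 42.1 (31.7 to 54.8) CPM in the ZsG- and ZsG+ CD45 libraries and 38.1 (23.6 to 58.3) in the ZsG+ T cell library. DC2-like cells had 23.3 (5 UMIs), 25.04 and 31.8 in the same order, and mature DC-like cells 26.2 and 36.6 in the 2 ZsG+ libraries. Every pDC-, macrophage- and classical monocyte-like group lay lower, at 7.32 CPM (1 UMI) or less. These 3 DC classes nevertheless held a minority of its UMIs in the CD45 sort, with 14.7% in DC1-like, 11.8% in DC2-like and 4.41% in mature DC-like cells, beside 22.1% in NK cell-like cells, where 91 of 2519 ZsG- cells had a UMI.

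*Flt3* was shared by DC1-like, mature DC-like and pDC-like cells and lower in DC2-like cells. DC1-like cells had 84.2 (55.03 to 123) and 76.6 (62.3 to 93.2) CPM in the ZsG- and ZsG+ CD45 libraries and 92.6 (68.9 to 122) in the ZsG+ T cell library. The 4 pDC-like groups lay between 62.2 (ZsG+, T cell sort) and 117 (ZsG+, CD45 sort, 16 UMIs), and mature DC-like cells at 70.5 and 95.9 in the ZsG+ libraries. These ranges overlapped. DC2-like cells had 32.7 (7 UMIs), 12.3 (25 UMIs) and 28.95 (10 UMIs), and macrophage-like cells 1.71 in the CD45 sort and none in 141 cells of the T cell sort.

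*Kmo* was highest in pDC-like cells over each sort. The 4 pDC-like groups had 206 (186 to 227) and 198 (130.2 to 287) CPM in the ZsG- and ZsG+ CD45 libraries and 205 (179 to 234) and 216 (203 to 229) in those of the T cell sort. These 4 intervals overlapped, and 80% and 78.01% of pDC-like cells of the CD45 and T cell sorts had a UMI. DC2-like cells came next with 205 (149 to 276), 134 (118 to 150.4) and 191 (148 to 243) in the ZsG- and ZsG+ CD45 libraries and the ZsG+ T cell library, and the first and last of these overlapped those of pDC-like cells. DC1-like cells had 81.01, 52.9 and 65.3 in that order. Mature DC-like cells were lower at 16.4 and 47.1 in the ZsG+ libraries, macrophage-like cells had 7.78 and 1.53 over the CD45 and T cell sorts, and 78.97% of all *Kmo* UMIs of the T cell sort lay in pDC-like cells. The 35 B cell-like cells of the CD45 sort had 53.00 (19.5 to 115), from 6 UMIs, which overlapped DC1-like cells. *Kmo* was thus shared by DC1-like, DC2-like, pDC-like and B cell-like cells, and mature DC-like cells had the lowest level of the 4 DC classes in both sorts, with an interval that overlapped that of DC1-like cells in the T cell sort.

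**Figure D3:**
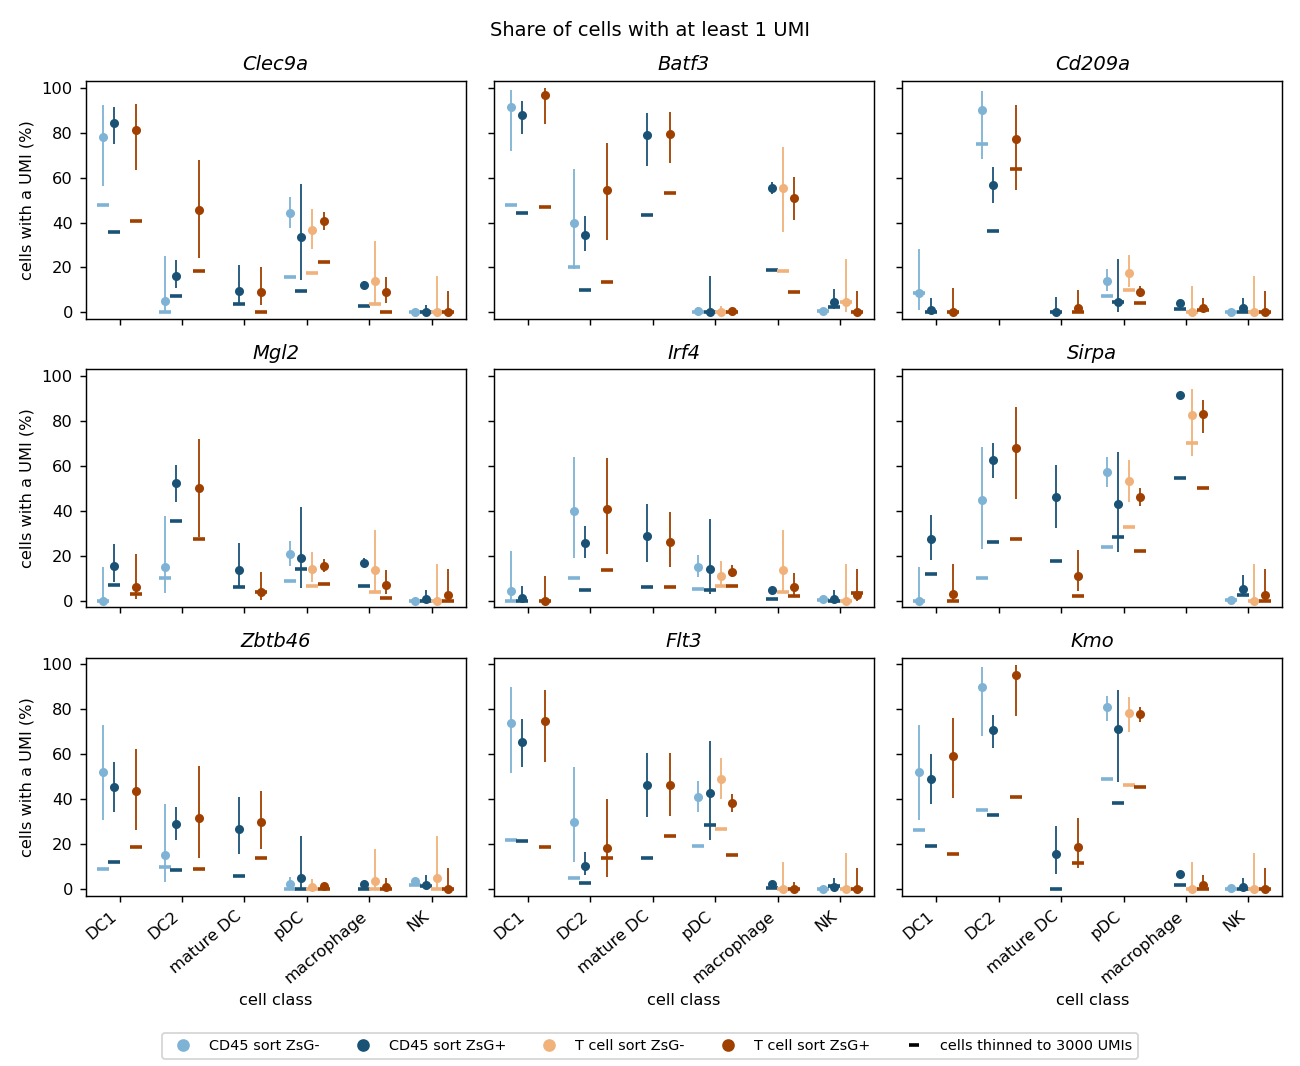
Percent of cells with at least 1 UMI of each gene (1 panel per gene) in 6 classes, 1 point per class and library with at least 20 cells; vertical lines are exact 95% binomial intervals for counting error and dashes are shares after thinning to 3000 UMIs per cell. *Batf3* is high in DC1-like and mature DC-like cells and near 0 in pDC-like cells, *Kmo* is high in DC2-like and pDC-like cells, and *Sirpa* is highest in macrophage-like cells.

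DC1-like and DC2-like cells were then compared directly. In the CD45 sort with both libraries summed (107 and 173 cells), 3 of the 9 genes were at least 2-fold higher in DC1-like cells and 5 at least 2-fold lower, where 6.63% and 6.74% of the 8380 genes with at least 20 UMIs were higher and lower. The classes were built from other DC1 and DC2 genes, and the 9 genes were chosen as DC genes with earlier results known. That they differ between these classes was thus largely fixed in advance, and the ratios are given as a description. On the log2 scale, the DC1-like over DC2-like ratio was 3.25 (2.77 to 3.78) for *Clec9a*, 2.46 (1.89 to 3.06) for *Flt3* and 2.36 (2.05 to 2.69) for *Batf3*. *Zbtb46*, at 0.802 (0.27 to 1.34), stayed within 2-fold. On the DC2 side *Cd209a* had -5.03 (-5.72 to -4.41), *Irf4* -4.403 (-7.48 to -2.49) and *Mgl2* -3.32 (-3.73 to -2.94). The ratios of *Kmo*, -1.27 (-1.62 to -0.93), and *Sirpa*, -1.205 (-1.61 to -0.81), were smaller. Of the 21 *Cd209a* UMIs in DC1-like cells, 20 lay in 2 cells, and the ratio was -7.35 without the cell filter and -8.84 with 1 more class marker. *Mgl2* had -1.71, *Clec9a* 3.91 and *Flt3* 3.18 with the gate applied to thinned cells, and *Flt3* 3.58 with 1 more class marker, each with the same direction. *Clec9a* and *Batf3* thus lay on the DC1 side together with *Flt3*, and *Cd209a*, *Mgl2*, *Irf4* and *Sirpa* on the DC2 side together with *Kmo*.

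Within single libraries the direction of every gene past 2-fold was that of the summed comparison, but the sizes varied. The *Cd209a* ratio was -4.205 (-4.94 to -3.55) in the ZsG- and -8.81 (-14.11 to -6.32) in the ZsG+ library of the CD45 sort, 2 intervals that did not overlap. *Mgl2* had -3.15 (-3.55 to -2.77) in the ZsG+ CD45 library and -7.29 (-10.34 to -5.42) in the ZsG+ T cell library, which did not overlap either. *Clec9a* had 5.201 (2.66 to 10.53) in the ZsG- CD45 library, from 53 against 1 UMI. In the ZsG- library of the CD45 sort (23 and 20 cells) 6 genes reached 20 UMIs, 4 were higher and 2 lower in DC1-like cells, beside 10.8% and 9.46% of 3244 genes. Here *Zbtb46* passed 2-fold with 1.06 (-0.48 to 2.87), from 15 against 5 UMIs, with an interval that reached below 0. In the ZsG+ library (84 and 153 cells) all 9 reached 20 UMIs, 3 were higher and 4 lower, beside 6.34% and 6.89% of 8094 genes, and *Sirpa*, at -0.95 (-1.36 to -0.55), and *Zbtb46*, at 0.75 (0.17 to 1.33), were within 2-fold. In the ZsG+ library of the T cell sort (32 and 22 cells) 8 genes were covered, 3 were higher and 4 lower, beside 10.3% and 10.1% of 4499 genes. There *Cd209a* was at least 132-fold lower in DC1-like cells (0 against 248 UMIs, where the exact interval of the log2 ratio ends at -6.73), and *Sirpa* had a ratio of -3.05 (-4.79 to -1.65), from 5 against 26 UMIs. The *Clec9a* ratio was 2.27 (1.43 to 3.23) there, lower than the 3.13 (2.63 to 3.67) of the ZsG+ CD45 library with overlapping intervals.

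**Figure D4:**
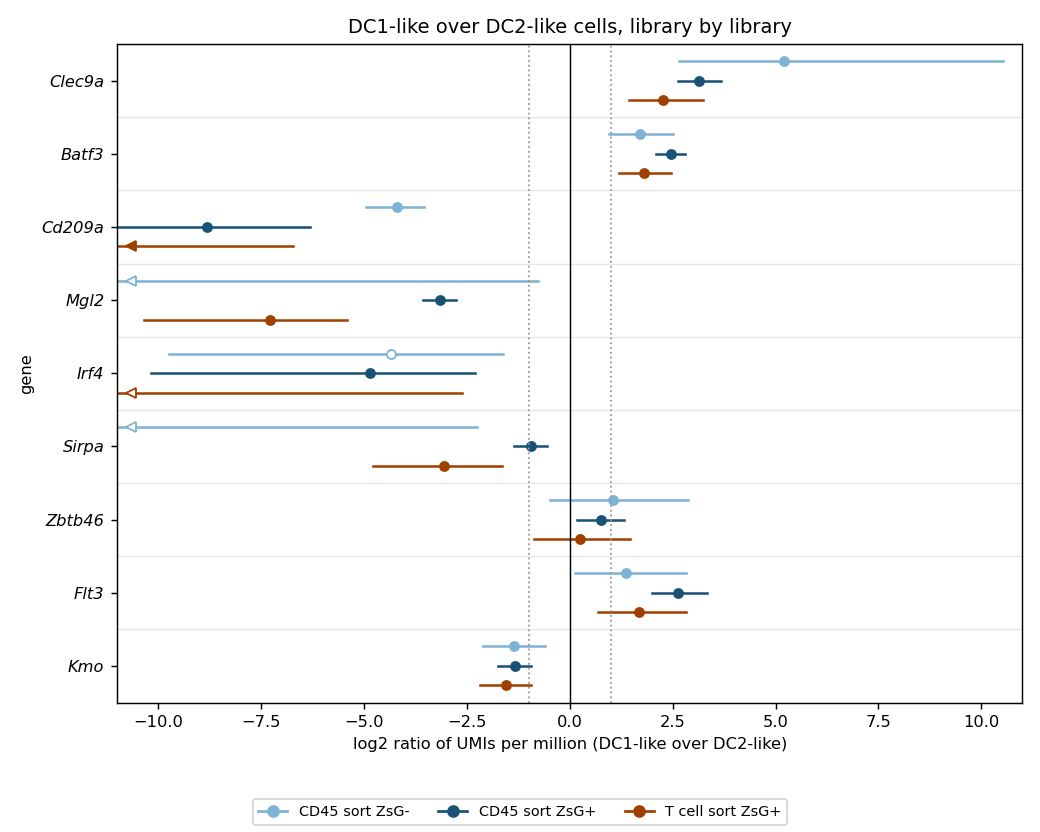
Log2 ratio of the level in DC1-like over DC2-like cells for each gene in 3 libraries, with exact 95% intervals for counting error; open symbols have fewer than 20 UMIs, arrowheads mark 0 UMIs in 1 class, lines that meet the frame run on past it, and dotted lines mark 2-fold. *Clec9a*, *Batf3* and *Flt3* lie to the right (DC1-like) in all 3 libraries and *Cd209a*, *Mgl2*, *Irf4* and *Kmo* to the left (DC2-like).

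Genes of the same pathways were read in the same summed comparison, where the median log2 ratio of all genes tested was 0.07. Of 16 cDC transcription factors, 15 had at least 20 UMIs and 3 were higher in DC1-like cells: *Irf8*, the DC1-determining factor, 7.99-fold, *Id2* 3.97-fold and *Bcl6* 2.47-fold. *Batf2*, *Zeb2* and *Junb* were 3.503-, 2.100- and 2.05-fold higher in DC2-like cells, 9 were within 2-fold, and the list median was -0.51. The CD45 libraries differed in size for some of these, with intervals that did not overlap. *Id2* was 56.2-fold higher in DC1-like cells in ZsG- (405 against 5 UMIs) and 3.32-fold in ZsG+. *Zeb2* was 12.1-fold higher in DC2-like cells in ZsG- (42 against 5 UMIs) but within 2-fold in ZsG+, at 1.77-fold. *Irf8* was 5.08-fold higher in DC1-like cells in ZsG- and 8.47-fold in ZsG+. Of 5 pDC transcription factors, 4 were covered, none was higher in DC1-like cells and 3 were higher in DC2-like cells (*Tcf4* 2.66-fold, *Runx2* 2.63-fold and *Zeb2*, which stands in both lists), with a list median of -1.23. The 5 myeloid growth factor receptors, among them *Csf1r* and *Kit*, were all within 2-fold in this summed comparison (median -0.51), unlike *Flt3*. Single libraries varied. In the ZsG- library of the CD45 sort 3 were covered, and *Kit* was 3.30-fold higher in DC1-like cells (38 against 8 UMIs, log2 ratio 1.72, 0.60 to 3.03). In the ZsG+ library of the T cell sort 1 of 4 covered was higher, and in that of the CD45 sort 0 of 5.

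Among 13 other C-type lectins, 8 were covered; *Clec7a* was not analysed here. *Ly75* (DEC-205, an uptake receptor) was 3.11-fold higher in DC1-like cells, and 4 were higher in DC2-like cells: *Cd209d*, a neighbour of *Cd209a* in the same family, with 135 against 0 UMIs, *Clec4n* 6.69-fold, *Mrc1* 2.999-fold and *Clec4a2* 2.38-fold, with a list median of -0.94. Of 6 genes of the SIRP family and its partners, 5 were covered, and the activating relatives *Sirpb1b* and *Sirpb1c* were 5.56- and 2.53-fold higher in DC2-like cells while *Cd47*, *Ptpn6* and *Ptpn11* were within 2-fold (median -0.86). Of 8 surface and adhesion genes, 4 were higher in DC1-like cells, namely *Itgae* (CD103) 21.2-fold, *Cadm1* 12.5-fold, *Cd24a* 7.36-fold and *Btla* 5.62-fold, and *Itgam* (CD11b) was 2.27-fold higher in DC2-like cells (median 1.504). *Itgam* was counted in neither CD45 library alone. It had too few UMIs in ZsG- (1 against 16), and 0 of these genes were lower in DC1-like cells in ZsG+. Around *Kmo*, only *Kyat3*, *Kynu* and *Haao* of 10 kynurenine pathway genes were covered and all 3 were within 2-fold (median 0.09). In the ZsG+ library of the CD45 sort alone, 1 of 3 covered was higher in DC1-like cells. *Ido1*, which opens the pathway, had 0 UMIs in both DC classes.

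The pDC-like cells were compared with DC1-like cells in the CD45 sort, both libraries summed. Of the 9 genes, 3 were at least 2-fold higher in pDC-like cells and 3 at least 2-fold lower, beside 21.7% and 14.2% of 8780 genes, so this count sets the 9 genes little apart on the higher side. The log2 ratio of pDC-like over DC1-like cells was 4.05 (2.11 to 7.14) for *Irf4*, 1.82 (1.49 to 2.16) for *Kmo* and 1.24 (0.84 to 1.65) for *Sirpa*. It was -8.98 (-14.29 to -6.496) for *Batf3* (1 against 399 UMIs), -3.89 (-5.38 to -2.69) for *Zbtb46* and -1.17 (-1.47 to -0.88) for *Clec9a*. *Flt3*, *Cd209a* and *Mgl2* were within 2-fold. Of the summed cells, 214 of 235 pDC-like were ZsG- but 84 of 107 DC1-like were ZsG+, so class and ZsG library are mixed here. All 59 *Mgl2* and all 70 *Sirpa* UMIs of the DC1-like cells came from the ZsG+ library, with 0 in the ZsG- library. The 3 transcription factors *Batf3*, *Irf4* and *Zbtb46* thus had the widest ratios between pDC-like and DC1-like cells, while *Flt3* stood at -0.16 (-0.52 to 0.197). In the T cell sort (723 and 37 cells) 5 genes were higher and 3 lower in pDC-like cells, beside 31.3% and 10.7% of 9282 genes, and the 3 lower genes were the same. There *Cd209a*, with 129 against 0 UMIs, was at least 4.32-fold higher, and *Mgl2*, from 148 against 3 UMIs, had 2.31 (0.74 to 4.605). Both were within 2-fold in the CD45 sort, where 20 of the 21 *Cd209a* UMIs of DC1-like cells lay in 2 cells. *Sirpa* in the T cell sort had 88.7 (81.4 to 96.5) CPM in pDC-like and 8.13 (2.64 to 19.0) in DC1-like cells, a wider difference than in the CD45 sort.

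DC1 and DC2 genes were also read in the same cells, as a UMI of *Clec9a* or *Batf3* together with a UMI of *Cd209a* or *Mgl2*. In the CD45 sort this held for 15 of 107 cells (14.02%, 8.06 to 22.1%) of the DC1-like class, 65 of 173 cells (37.6%, 30.3 to 45.2%) of the DC2-like class, 33 of 235 cells (14.04%, 9.87 to 19.2%) of the pDC-like class and 6 of 62 cells (9.68%, 3.63 to 19.9%) of the mature DC-like class. The product of the single shares would give 15.1, 60.3 and 31.7 cells in the first 3 classes. In DC2-like and pDC-like cells UMIs of the 2 gene pairs thus met in about as many cells as their separate frequencies give. In DC2-like cells *Batf3*, which was not restricted to DC1-like cells, was found in 61 cells and *Clec9a* in 26. The product also pools both libraries and cells of unlike depth, so it cannot show how the branches combine in a cell. For DC1-like cells the product cannot decide this, since nearly all of them had *Clec9a* or *Batf3* and the joint count could hardly differ from it. Of the ZsG+ DC2-like cells of the CD45 sort, 33 of 153 cells (21.6%, 15.3 to 28.9%) had *Batf3* with *Mgl2* and 13 of 153 cells (8.497%, 4.602 to 14.1%) had *Clec9a* with *Cd209a*, against products of 27.7 and 14.2. In the T cell sort the ZsG+ library gave 2 of 32 cells (6.25%, 0.766 to 20.8%) for DC1-like and 14 of 22 cells (63.6%, 40.7 to 82.8%) for DC2-like cells, against products of 2 and 14.7. All 32 DC1-like cells there had *Clec9a* or *Batf3*, so their joint count had to equal the product. The DC1 genes and the DC2 genes were each found in most of the 22 DC2-like cells, which left that count little room to differ. Both members of the DC2 pair, *Cd209a* and *Mgl2*, met in 44 of 153 ZsG+ DC2-like cells of the CD45 sort, against a product of 45.5. The joint shares were lower at even depth. With each cell thinned to 3000 UMIs they were 5.61%, 9.302% and 2.98% in DC1-like, DC2-like and pDC-like cells. In DC1-like cells the joint share was 8.696% in the ZsG- and 15.5% in the ZsG+ library, and 3 of 43 (6.98%) over both libraries in cells without a C1q UMI.

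Across the ZsG gate, *Clec9a* and *Batf3* were within 2-fold in DC1-like cells. In the CD45 sort 2 genes were at least 2-fold higher in ZsG+ than in ZsG- DC1-like cells, 1 was lower and 5 were within 2-fold, with *Irf4* too rare, beside 11.5% and 3.74% of 6410 genes. The log2 ratio of ZsG+ over ZsG- cells was -0.07 (-0.51 to 0.395) for *Clec9a*, -0.17 (-0.53 to 0.19) for *Batf3*, -0.14 (-0.77 to 0.54) for *Flt3*, -0.21 (-1.05 to 0.72) for *Zbtb46* and -0.62 (-1.29 to 0.11) for *Kmo*. The higher genes were *Mgl2* (59 UMIs in 13 of 84 cells against 0 in 23 cells) and *Sirpa* (70 UMIs in 23 of 84 cells against 0). The floor gives at least 4.65- and 5.52-fold, limits that are too high for UMIs held by so few cells. Both are genes of the macrophage-like class too. Without cells that had a C1q UMI, *Sirpa* had 0 UMIs and *Mgl2* 14 UMIs in 2 of 20 ZsG+ cells. No member then counted as higher, and the share over all genes was not computed for this set. The *Mgl2* level of those 20 ZsG+ cells, 59.7 CPM, was not below the 45.2 of all ZsG+ DC1-like cells. *Mgl2* dropped out because 14 UMIs are under the minimum of 20. The part of macrophage transcripts in both genes was not tested. *Cd209a* was lower, at -6.403 (-11.78 to -3.76) from 1 against 20 UMIs, and all 20 lay in 2 cells. Without the cell filter that ratio was -3.75.

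In DC2-like cells of the CD45 sort the 2 lectins went opposite ways. *Mgl2* was higher in ZsG+ cells, with a log2 ratio of 3.84 (2.71 to 5.29), and *Cd209a* lower, at -1.802 (-2.01 to -1.59). In all, 2 genes were higher and 3 lower, beside 19.0% and 4.73% of 7082 genes. The other gene counted higher was *Clec9a*, at 2.00 (-0.57 to 7.34) from 38 against 1 UMI. *Irf4*, at -1.56 (-2.46 to -0.58), and *Flt3*, at -1.41 (-2.66 to 0.04), were lower. For *Clec9a* and *Flt3* the interval includes no difference. *Batf3*, *Zbtb46*, *Sirpa* and *Kmo* were within 2-fold. Left without cells that had a C1q UMI, the ZsG+ library had 271 CPM of *Mgl2* (96 UMIs in 14 of 31 cells) and 431 of *Cd209a*. Cells with other macrophage markers were not left out, and the part of macrophage transcripts in these values was not tested. In that set 1 member was higher and 2 lower. The share over all genes was not computed for it, so this count says nothing particular about these genes. The ZsG- side rests on 20 cells, and the ZsG+ DC2-like cells of the T cell sort had 567 of *Mgl2*, above that ZsG- value, and 718 of *Cd209a*, below it. The 5 ZsG- DC2-like cells of the T cell sort went the other way for both genes, with 1211 (1006 to 1446) CPM of *Mgl2*, of which 112 of 122 UMIs lay in 1 cell, and 129 (68.7 to 221) of *Cd209a*.

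In pDC-like cells 7 of the 9 genes had at least 20 UMIs in each sort, and none of these counted as higher in ZsG+ cells. With the low shares of higher genes given below, 0 of 7 says nothing particular about these genes. In the T cell sort (120 ZsG- and 603 ZsG+ cells) all 7 genes with at least 20 UMIs were within 2-fold, beside 3.48% of 9015 genes higher and 1.71% lower. The log2 ratio was 0.07 (-0.14 to 0.29) for *Kmo* and 0.03 (-0.32 to 0.397) for *Clec9a*, whose intervals leave out a 1.5-fold difference, and it was -0.55 (-0.88 to -0.203) for *Flt3* and -0.82 (-1.39 to -0.21) for *Cd209a*, both below 0. In the CD45 sort (214 and 21 cells) 6 of 7 were within 2-fold, none was higher and 1 was lower, beside 5.41% and 15.6% of 7307 genes. The lower gene was *Cd209a* with 1 against 52 UMIs and a log2 ratio of -1.896 (-7.23 to 0.65), whose interval includes no difference.

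In classical monocyte-like cells of the CD45 sort (193 and 1017 cells), 2 genes were higher and 3 lower in ZsG+ cells, beside 10.6% and 9.75% of 9719 genes. *Mgl2* was found only on the ZsG+ side, with 234 UMIs in 68 of 1017 cells against 0 in 193 cells (at least 15.7-fold by the floor). In the T cell sort 57 UMIs lay in 4 of 93 ZsG+ cells, against 0 in 35 ZsG- cells (at least 7.53-fold by the floor). Both limits treat UMIs as independent and are too high here, and 4 positive cells cannot set a limit. *Clec9a* was also higher in the CD45 sort, at 1.77 (0.14 to 4.097) from 51 against 3 UMIs. *Flt3*, at -2.800 (-3.71 to -1.92), *Irf4*, at -1.605 (-2.41 to -0.77), and *Cd209a*, at -1.49 (-1.898 to -1.07), were lower in ZsG+ cells. For *Irf4* and *Cd209a* the direction turned, to 1.405 and 1.11, when cells with a T, NK or B cell marker UMI were left out. *Sirpa*, at 0.11 (-0.05 to 0.27), and *Batf3*, at 0.46 (0.17 to 0.76), were within 2-fold. The summed level of 6 non-classical monocyte markers was 164 CPM in the ZsG- and 36.3 in the ZsG+ cells, and that of 6 pDC markers was 32.8 against 4.88 and of 6 T cell markers 76.8 against 24.8. Levels of these markers of other classes thus differed between the libraries, and where their transcripts came from was not tested. *Flt3*, *Irf4* and *Cd209a* were all found in pDC-like cells and *Irf4* in T cell-like cells, while non-classical monocyte-like cells had 0 UMIs of *Flt3* and *Cd209a*, and the part of these cells in the result was not tested.

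**Figure D5:**
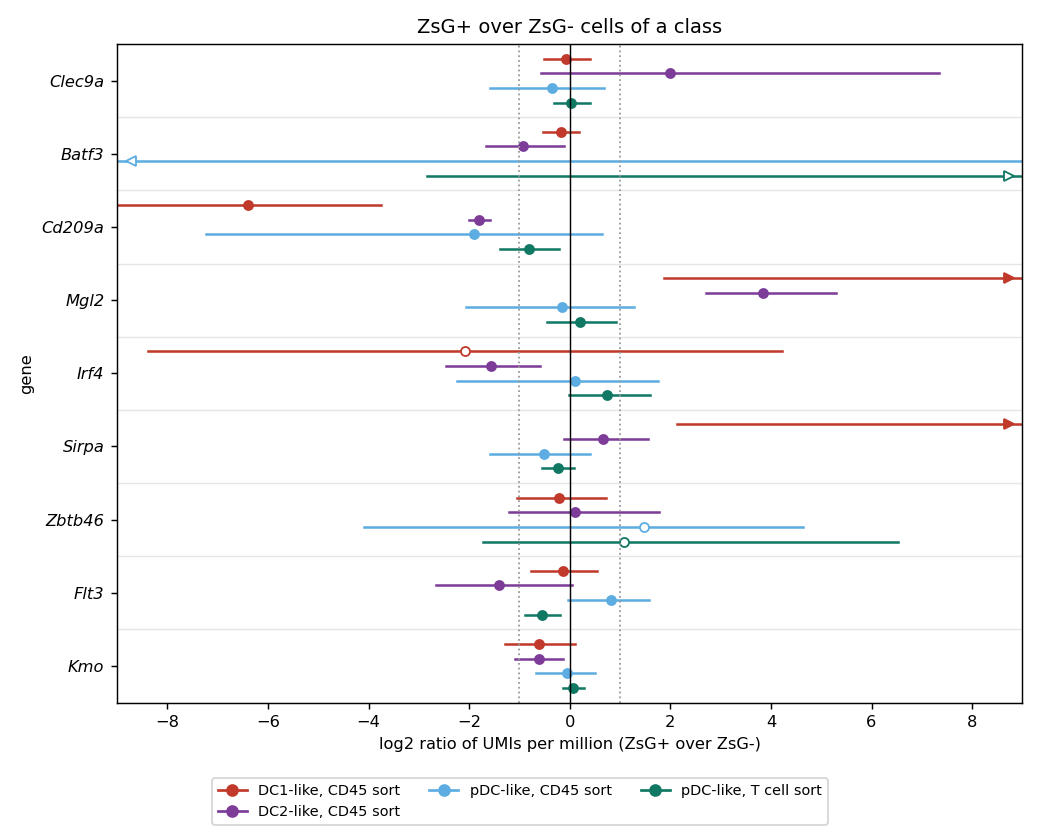
Log2 ratio of the level in ZsG+ over ZsG- cells for each gene in DC1-like and DC2-like cells of the CD45 sort and in pDC-like cells of both sorts, with exact 95% intervals for counting error; open symbols have fewer than 20 UMIs, arrowheads mark 0 UMIs on 1 side, lines that meet the frame run on past it, and dotted lines mark 2-fold. *Clec9a*, *Batf3* and *Flt3* sit near 0 in DC1-like cells, while *Mgl2* lies to the right (ZsG+) and *Cd209a* to the left in DC1-like and DC2-like cells.

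The genes most like each member were sought over 30 class-by-library sums, by Pearson correlation of log2(level + 10) among 11357 genes. The sums share libraries and depth, and r is given as a description. *Clec9a* was followed by Mycl (0.96), Tnni2 (0.94), Pdia5 (0.93), *Zbtb46* by Zfp366 (0.96), Ppp1r14a (0.89), Tspan33 (0.86) and *Kmo* by Kynu (0.92), Herpud1 (0.90), Haao (0.90), of which *Kynu* and *Haao* encode further enzymes of the kynurenine pathway. *Flt3* was followed by Tnni2 (0.92), Arhgap5 (0.91), Kynu (0.90), and *Batf3* by Shtn1 (0.90), Atox1 (0.89), Nav1 (0.89). For the DC2 genes the nearest were Fcor (0.90), Ctnnd2 (0.84), Il1r2 (0.80) for *Cd209a*, Gpr85 (0.77), Prr15 (0.75), Dcstamp (0.75) for *Mgl2*, Ccr6 (0.72), Gpr183 (0.71), Dhx57 (0.71) for *Irf4* and Zeb2os (0.95), Plxnb2 (0.94), Ctsa (0.93) for *Sirpa*. The first gene stood at 0.72 for *Irf4* and 0.77 for *Mgl2*, and at 0.90 to 0.96 for the other 7.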

How the data were processed

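The values are deposited as UMI counts for each gene in each cell, which the authors made with Cell Ranger from 10x 3′ v3.1 libraries aligned to mm10 and joined with its aggr step. Per the labels and methods the version was 6.1.2, per the file headers 7.0.0 for the CD45 sort and 6.1.2 for the T cell sort. Whether aggr evened out depth is not given by labels, headers or methods. Barcode suffixes gave the library, and 0 columns of values belonged to no sample.

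A gene had to be found in 3 or more cells, and a cell passed with 1000 to 6000 genes and under 10% mitochondrial UMIs (CD45 sort) or 50 to 6000 genes and under 15% (T cell sort). This left 4698 ZsG- and 4124 ZsG+ cells of the CD45 sort and 948 and 1879 of the T cell sort, 1 library each. The CD3 limit of the study's methods was not applied, so that DC and pDC stay. Each class had 6 markers, each scaled as log1p of UMIs per 10000 to its 90th percentile in positive cells and capped. A cell took a class if its mean score reached 0.3, the margin to the next class 0.1 and at least 3 markers were detected. Differences from the study may come from these rebuilt names. No doublet caller was run, and mixed cells were treated in alternatives.

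UMIs were summed per class and library, divided by all UMIs of those cells and given per 1000000 (CPM). With 1 library per condition there was no test. A gene counted as higher or lower at a ratio of at least 2-fold with at least 20 UMIs over both sums and at least 20 cells a side. Shares were repeated after thinning to 3000 UMIs per cell. Folds against 0 UMIs used 3 counts per group as the floor. The ratio step was tested on simulated data. Positions are from GENCODE vM21 and promoters from RefSeq (GRCm38.p6). Analyses used Python 3.11.15, numpy 2.4.6, scipy 1.17.1 and pandas 2.3.3, and TMM factors came from edgeR 4.0.16 in R 4.3.3. Alternatives changed the cell filter, the gate, mixed cells, scaling, minimum UMIs and fold.

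The members and gene lists were chosen with earlier results of these data known, and the scoring rule of the gate was settled after 3 versions whose class sizes, marker shares and member shares had been seen. Genes named are the 9 members, the 3 genes most like each and, from the 7 lists, the largest that passed 2-fold between DC1-like and DC2-like cells.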

Additional observations from a re-analysis of the deposited data

Results flagged for a closer look

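The ratio of ZsG+ over ZsG- cells differed between classes for *Batf3* and *Sirpa*, judged by intervals that lay wholly above 0 in some classes and wholly below 0 in others; the differences themselves were not tested and cover counting error only. For *Batf3* the log2 ratio was 0.46 in classical monocyte-like cells of the CD45 sort, 2.39 in T cell-like cells of that sort (40 against 47 UMIs in 219 and 1399 cells) and 2.48 in T cell-like cells of the T cell sort (24 against 3 UMIs), but -0.93 in DC2-like cells of the CD45 sort. For *Sirpa* it was 4.03 and 3.21 in T cell-like cells of the CD45 and T cell sorts, but -0.38 in macrophage-like cells of the T cell sort. T cell-like cells with a C1q UMI made up 78.1% of the ZsG+ and 4.07% of the ZsG- cells in the CD45 sort, and the part of this in the *Sirpa* and *Batf3* values was not tested.

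Cells that met no class, which the comparisons left out, held many UMIs of 4 of the genes. In the CD45 sort they held 26.9% of *Flt3*, 40.5% of *Cd209a*, 33.6% of *Mgl2* and 28.1% of *Kmo* UMIs, and in the T cell sort 37.8% of *Cd209a* and 27.2% of *Mgl2* UMIs. These cells numbered 244 (ZsG-) and 963 (ZsG+) in the CD45 sort, where *Cd209a* and *Mgl2* stood among the 10 genes that set them apart by fold.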

How the results depend on the processing

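No paired analysis was possible because every condition is 1 library and no result comes from a test; for the same reason no library could be left out. Counts of members between DC1-like and DC2-like cells changed by less than 1.5 times under every alternative that gave a value. Of all single log2 ratios recomputed, 305 of 324 moved by less than their counting error, 16 moved further and 3 reversed, all in classical monocyte-like cells of the CD45 sort: *Cd209a* to 1.11 and *Irf4* to 1.405 without cells that had a T, NK or B cell marker UMI, and *Cd209a* to 0.69 where *Klrk1* was exempt, an exemption chosen after seeing the data. Of the counts of members, 49 of 62 stayed within 1.5 times. The share over all genes was not computed under the alternatives. Counts of members given here therefore cannot be set against it and say nothing particular about these genes. For ZsG+ against ZsG- cells, a minimum of 100 UMIs gave 0 genes in DC1-like, 2 in DC2-like, 0 in pDC-like and 2 in classical monocyte-like cells of the CD45 sort, since fewer genes were then compared. No minimum gave 3 in pDC-like cells of the CD45 sort and 2 in those of the T cell sort, and a 1.5-fold limit 8 in DC2-like cells, 2 in pDC-like cells of the CD45 sort and 2 in pDC-like cells of the T cell sort. Leaving out DC with a C1q UMI, also chosen after seeing the data, gave 1 in DC1-like and 3 in DC2-like cells, and leaving out cells with a T, NK or B marker UMI gave 1 in pDC-like cells of the T cell sort and 2 in classical monocyte-like cells; the cause was not tested. Joint detection of DC1 and DC2 genes (18 of 25 values kept) was 5.61% in DC1-like, 9.30% in DC2-like and 2.98% in pDC-like cells after thinning, 15.03% in DC2-like and 2.55% in pDC-like cells with at least 2 UMIs of each, 6.98% in DC1-like cells without C1q UMIs and 7.14% of 42 pDC-like cells at a mitochondrial limit of 5%. That limit took away most pDC-like cells. It left 14 of 21 ZsG+ and 28 of 214 ZsG- cells in the CD45 sort. In the T cell sort 95 of 603 ZsG+ and 10 of 120 ZsG- cells were left, so neither ZsG comparison of pDC-like cells gave a value there. Alternatives that left fewer than 20 cells in a class gave no value: without any T, NK or B marker UMI 9 DC1-like and 9 DC2-like cells remained. In the CD45 sort 1 more class marker left 11 DC1-like and 10 DC2-like ZsG- cells, as did the gate on thinned cells. With *Klrk1* exempt 9 and 12 remained, and at a mitochondrial limit of 5% 18 DC2-like ZsG- cells. The ZsG comparisons with these cell numbers gave no value and are not among the 324 single ratios. Intervals are wide where a side of a comparison holds 20 to 23 cells, as ZsG- DC1-like and DC2-like and ZsG+ pDC-like cells of the CD45 sort do.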
